A study of Mus musculus with 6 samples.

Results

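The genes described here carry symbols that start with 1700 and end in Rik, the names of clones from a RIKEN library of adult mouse testis cDNA. They were chosen by symbol alone, from the table that the authors deposited for late spermatocytes, male germ cells in meiotic prophase. The table lists 11421 genes, of which 887 have a Rik symbol and 182 a symbol of the 1700 series. No symbol and no identifier was repeated among the 182. The study sequenced polyadenylated RNA of 6 libraries, 3 labelled Mov10l1 fl/+ and 3 labelled Mov10l1 s fl/-. Mov10l1 encodes an RNA helicase needed for piRNA production, and the series concerns cells deficient in pachytene piRNAs. The sources used here do not give the meaning of the letter s, the Cre line or the age of the animals. The labels name Trizol extraction from testes or from sorted cells, without saying which holds for which library. Since the 6 columns of values carry no names, no column could be tied to a library or a genotype. Levels, depth and the difference between the genotypes are therefore not given. What follows describes which genes of the series the table holds and what these genes share. A row does not show that its gene was expressed.

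A Rik symbol is a placeholder given to a gene known first from a cloned cDNA, and it is replaced when the gene receives a name. Testis cDNA libraries hold transcripts of meiotic and postmeiotic germ cells, among them those for the sperm tail, the acrosome and the packing of chromatin. Many genes of this kind have promoters with few CpG dinucleotides. The transcription factor MYBL1 (A-MYB) acts in pachytene spermatocytes on meiotic genes and pachytene piRNA loci through a MYB site, RFX factors act through the X-box on genes of cilia and flagella, and CREM acts in spermatids through the cAMP response element.

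Promoters of 4 members are shown first, to set windows with few CG pairs beside windows with many. They are RefSeq windows of 300 bases (250 before and 50 after the start) in GRCm38.p6, printed from 5′ to 3′ on the strand of the gene, with each CG pair in capitals. Tex45 (chr8:3470612-3470911, plus strand) has 0 CG pairs and Spaca7 (chr8:12572786-12573085, plus strand), named for the sperm acrosome, has 1. By contrast, 1700029J07Rik (chr8:45975203-45975502, minus strand) has 31 and 1700037C18Rik (chr16:3908640-3908939, minus strand) has 16. Both of the latter start head to head with another gene, Ufsp2 and Cluap1.
Tex45: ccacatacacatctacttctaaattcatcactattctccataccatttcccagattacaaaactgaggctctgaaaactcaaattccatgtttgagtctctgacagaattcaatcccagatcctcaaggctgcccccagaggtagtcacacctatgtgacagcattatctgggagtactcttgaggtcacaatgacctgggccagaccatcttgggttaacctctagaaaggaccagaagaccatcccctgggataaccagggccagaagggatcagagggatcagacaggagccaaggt
Spaca7: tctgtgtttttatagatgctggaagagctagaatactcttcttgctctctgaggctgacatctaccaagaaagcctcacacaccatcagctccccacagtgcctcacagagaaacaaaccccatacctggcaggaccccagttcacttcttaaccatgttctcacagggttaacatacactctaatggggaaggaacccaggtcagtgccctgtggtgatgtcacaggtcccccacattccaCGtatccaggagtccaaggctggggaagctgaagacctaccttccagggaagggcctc
1700029J07Rik: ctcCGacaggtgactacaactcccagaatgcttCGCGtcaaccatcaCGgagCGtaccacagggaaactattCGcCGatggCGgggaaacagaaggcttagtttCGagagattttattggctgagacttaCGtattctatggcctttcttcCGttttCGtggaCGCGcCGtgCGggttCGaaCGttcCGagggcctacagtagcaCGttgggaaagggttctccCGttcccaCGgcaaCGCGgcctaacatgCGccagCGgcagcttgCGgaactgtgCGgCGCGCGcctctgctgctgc
1700037C18Rik: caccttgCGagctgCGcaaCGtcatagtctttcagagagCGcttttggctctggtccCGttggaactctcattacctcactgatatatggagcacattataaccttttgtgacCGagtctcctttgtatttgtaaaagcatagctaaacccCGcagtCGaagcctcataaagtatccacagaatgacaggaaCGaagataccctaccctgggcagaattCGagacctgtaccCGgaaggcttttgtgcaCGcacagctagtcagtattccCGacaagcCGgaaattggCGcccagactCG

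CpG content was measured as the number of CG pairs over the number that the C and G content of the window would give. In the 142 members with a RefSeq promoter window, the median of this ratio was 0.398 (interquartile range 0.172 to 0.691), and the lowest and highest values were 0 and 1.23. The ratio was below 0.4 in 71 of 142 windows and above 0.6 in 43 (30.3%). Members thus spread over the whole range, with no single level. Over all 9047 listed genes with a window the median was 0.770, with 16.2% below 0.4 and 72.1% above 0.6. The 165 windows of the other testis series, clones of the same kind of library numbered 4921, 4922 and 4930 to 4933, had a median of 0.40. The 402 windows of all other Rik series had a median of 0.798. Against all 32851 windows of the RefSeq table, listed or not, the members did not stand out, since their median was 0.384. No test is given for these contrasts, because the members were chosen by name and genes are not replicates of a condition.

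**Figure D1:**
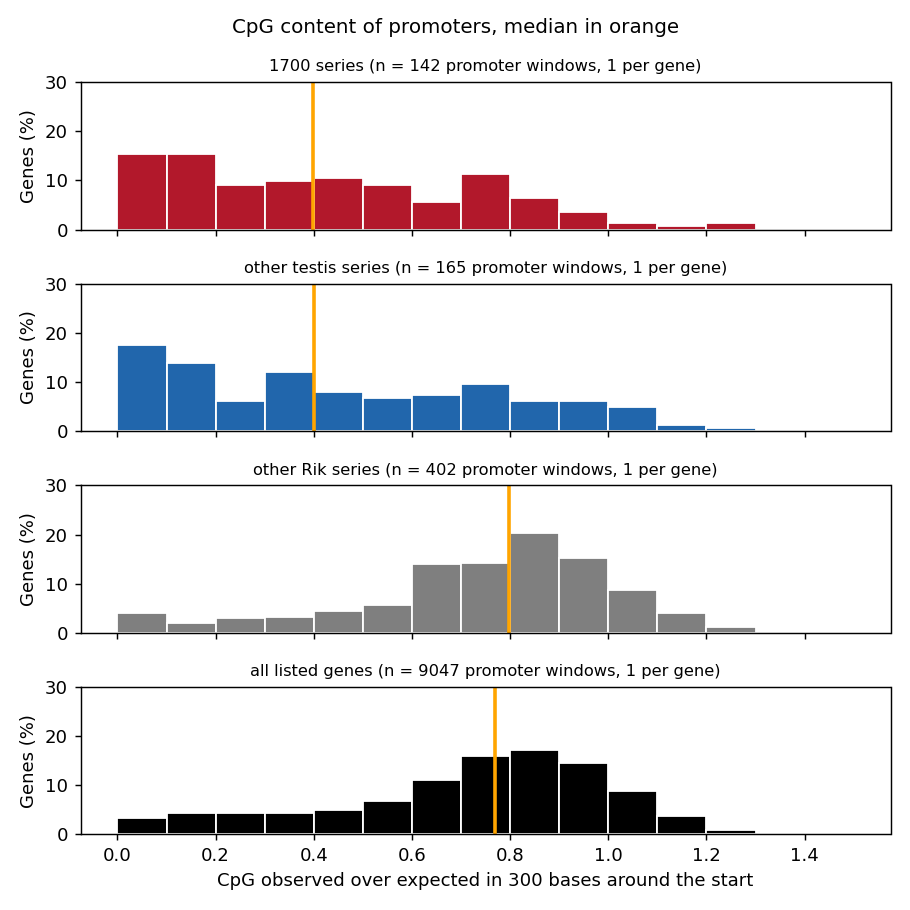
Histograms of CpG observed over expected in 300-base promoter windows, 1 per gene, as a percent of genes, for 3 sets of Rik genes and for all listed genes; the orange line is the median. The 1700 series (median 0.398) and the other testis series (0.40) have many windows below 0.4, whereas the other Rik series (0.798) and all listed genes (0.770) lie mostly above 0.6.

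Members with names or roles in sperm, testis or cilia took low, middle and high values of this ratio. Llcfc1, a sperm protein required for fusion with the egg, had a ratio of 0.151. Pifo, a protein of ciliary basal bodies, had 0.0758. Tex35 and Spata25, both named for the testis, had 0.204 and 0.238. Catsperz, a subunit of the CatSper calcium channel of the sperm tail, had 0.394. Cfap206 and Cfap77, proteins of the axoneme, had 0.741 each, and Tex30 had 1.11. These examples were picked after their values were seen.

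Motifs were searched on both strands of the same windows. A MYB core, here any of TAACTG or TAACGG or CAACTG or CAACGG, stood in 56 of 142 member windows (39.4%, exact 95% interval 31.3 to 48.0). The share was 26.6% over all listed genes and 28.3% over all RefSeq windows, and 40.0% in the other testis series. CAACTG also fits the pattern CANNTG of an E-box. The X-box motif GTTGCC, a single arm of the X-box, stood in 32 member windows (22.5%, exact interval 16.0 to 30.3). That share was 14.2% over all listed genes and 12.5% over all RefSeq windows. The 4921 to 4933 series again lay close, at 23.0%, and the other Rik series were at 12.9%. Intervals cover counting only, and the sets differ in CpG content, whose part in these shares was not tested.

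The other motifs were no more frequent than over all RefSeq windows. The cAMP response element TGACGTCA stood in 1 member window (0.704%), that of 1700066M21Rik, against 3.42% over all listed genes and 1.79% over all RefSeq windows. Its core TGACGT, which the full element contains, stood in 10 windows (7.04%), against 12.1% and 7.51%. The TATA box TATAAA stood in 18 windows (12.7%), against 6.88% and 13.6%. In the 150 bases nearest the transcript the TATA box stood in 1 member window (0.704%), against 2.82% over all listed genes. Over all RefSeq windows it stood in 6.94%, so members were below these windows in both spans. None of the 5 motifs was found in 53 member windows (37.3%), against 53.0% over all listed genes. A match is a string of letters, not a bound site, and a window without a match says nothing about the factor.

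**Figure D2:**
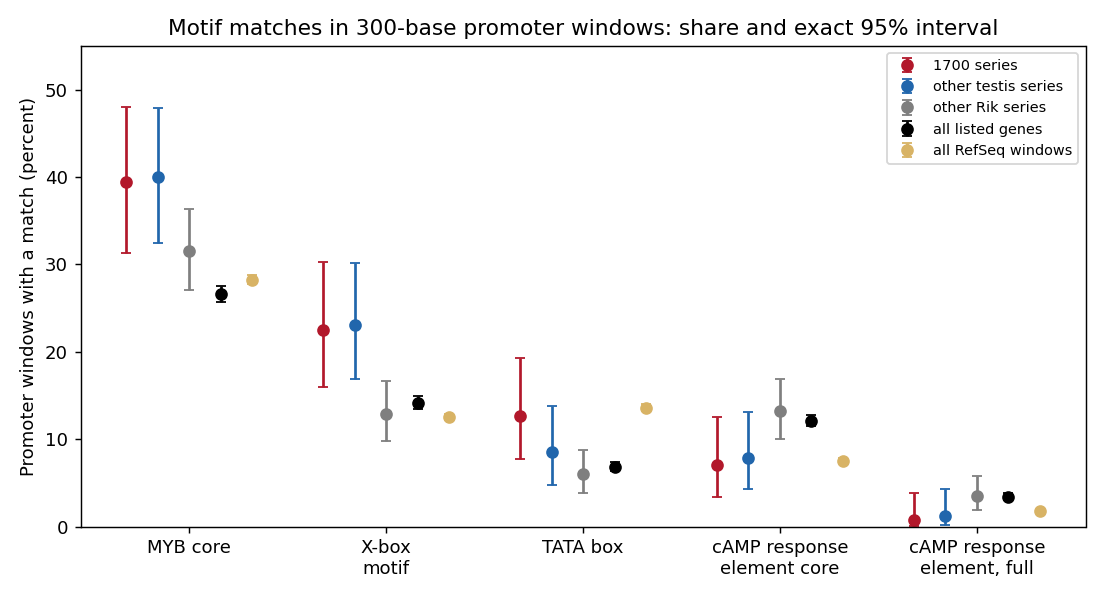
Percent of 300-base promoter windows with at least 1 match to each motif, with exact 95% binomial intervals, for 3 sets of Rik genes, all listed genes and all RefSeq windows. For the MYB core and the X-box motif, the 1700 series (39.4% and 22.5%) and the other testis series (40.0% and 23.0%) lie above all listed genes (26.6% and 14.2%).

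Both a MYB core and an X-box motif stood in 12 member windows (8.45%), against 5.57% over all listed genes. Each motif alone was also more frequent in members. In 5 of the 12 windows the pair overlapped, as GGCAACTG or GGCAACGG. These 5 belonged to 1700010I14Rik, Cfap161, Tmem247, 1700102P08Rik and 1700125H20Rik. Overlap was found in 3.52% of member windows, 2.42% of windows of all listed genes and 1.81% of all RefSeq windows. A pair of such windows is printed with those of Syce3 and Scp2d1, with MYB cores, X-box motifs and cAMP response element cores in capitals. The window of Syce3 also holds a TATA box, which is not marked. They are Syce3 (chr15:89410454-89410753, minus strand), Cfap161 (chr7:83794790-83795089, minus strand), Tmem247 (chr17:86917098-86917397, plus strand) and Scp2d1 (chr2:144823416-144823715, plus strand). Cfap161 has 3 MYB cores and 3 X-box motifs, of which 2 pairs overlap as GGCAACTG. Tmem247 has 1 overlapping pair, which begins at position -7 from the start. The MYB core of Syce3 begins at position -125, and the core of the cAMP response element of Scp2d1 at position -87.
Syce3: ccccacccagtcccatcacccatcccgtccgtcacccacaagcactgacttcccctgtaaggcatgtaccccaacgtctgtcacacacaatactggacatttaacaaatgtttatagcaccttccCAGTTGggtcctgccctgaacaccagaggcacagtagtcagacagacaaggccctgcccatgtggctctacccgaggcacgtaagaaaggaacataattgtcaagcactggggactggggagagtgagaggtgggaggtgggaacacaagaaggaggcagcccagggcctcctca
Cfap161: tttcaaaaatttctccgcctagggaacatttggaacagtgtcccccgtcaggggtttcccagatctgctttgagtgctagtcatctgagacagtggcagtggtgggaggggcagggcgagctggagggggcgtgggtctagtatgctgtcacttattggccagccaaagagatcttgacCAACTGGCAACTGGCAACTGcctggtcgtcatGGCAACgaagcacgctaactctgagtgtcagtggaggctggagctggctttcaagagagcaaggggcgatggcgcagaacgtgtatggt
Tmem247: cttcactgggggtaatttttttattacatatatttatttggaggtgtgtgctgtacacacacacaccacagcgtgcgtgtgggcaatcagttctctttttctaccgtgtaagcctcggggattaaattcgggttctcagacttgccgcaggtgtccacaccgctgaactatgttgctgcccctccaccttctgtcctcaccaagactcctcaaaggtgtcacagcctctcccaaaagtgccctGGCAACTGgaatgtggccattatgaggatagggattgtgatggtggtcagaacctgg
Scp2d1: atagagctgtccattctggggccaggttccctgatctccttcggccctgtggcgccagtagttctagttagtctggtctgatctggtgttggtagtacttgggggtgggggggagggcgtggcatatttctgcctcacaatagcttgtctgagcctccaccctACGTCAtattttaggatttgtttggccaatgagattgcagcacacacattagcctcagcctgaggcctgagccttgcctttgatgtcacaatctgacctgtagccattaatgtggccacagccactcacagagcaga

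The members were next read by what they are known as in GENCODE M21, a later annotation on GRCm38. Identifiers of 176 of the 182 members (96.7%) were in it. Of these, 72 (40.9%, exact 95% interval 33.6 to 48.6) stood there under another symbol, and none of the 72 was a Rik symbol. In the other testis series 98 of 206 (47.6%) had another symbol, and in the other Rik series 343 of 475 (72.2%). Members that encode no protein kept their clone names more often, with 1 of 22 renamed against 71 of 154 protein-coding members. The same order held in the other testis series (2 of 22 against 96 of 184) and the other Rik series (5 of 20 against 338 of 455). RefSeq gave another name to a further 8 members, among them Ms4a19, Ms4a20, Efcab15 and H2bl1. Among 20 number series with at least 10 listed genes, 2 had a lower share of renamed genes than the 1700 series. These were 4931 (29.4%) and 4932 (22.2%), both among the other testis series.

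Names that start with Cfap, Tex, Spata or Spaca, given for cilia and flagella, testis, spermatogenesis and the acrosome, made up 20 of the 72 new names. New names were counted over 26 starts of gene symbols, among members only. No share in the other series is therefore set beside these counts. Cfap, for proteins associated with cilia and flagella, was the start of 7 names, including Cfap126 (1700009P17Rik, 233 codons), Cfap77 (1700101E01Rik, 283 codons) and Cfap157 (1700019L03Rik, 523 codons). Ccdc, for coiled-coil proteins of various functions, was the start of 4, including Ccdc7b, ccdc198 and Ccdc192. Tex, for testis expressed, was the start of 7, with Tex30, Tex35 and Tex48 first by position. Spata, for spermatogenesis associated, was the start of 4, with Spata46, Spata45 and Spata25 first by position. Spaca9 and Spaca7 were named for the sperm acrosome. The starts Fam, Tmem and Zf gave 8 names, including Fam209, Fam229a, Fam24b, Tmem247 and Zfp974. The other 40 names fell under none of the 26 starts.

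Some of these 40 encode well known proteins, picked here for their roles after the list was seen. For meiosis they include Majin (1700123I01Rik), which ties telomeres to the nuclear envelope, at chr19:6184388-6224225 on the plus strand. Syce3 (1700007E06Rik), a protein of the central element of the synaptonemal complex, lies at chr15:89390174-89410503 on the minus strand and is among the shortest members, at 88 codons. For the sperm tail they include Catsperz (1700019N12Rik, 194 codons) and Ift43 (1700019E19Rik, 206 codons), a subunit of the intraflagellar transport complex. Tsacc (1700021C14Rik, 124 codons) is a co-chaperone of the testis kinase TSSK6. Others work in cells of every kind. Timm21 (1700034H14Rik) acts in import into mitochondria and Mtfp1 (1700020C11Rik) in mitochondrial fission. Kansl1 (1700081L11Rik) is a scaffold of a histone acetyltransferase complex, and Rubcn (1700021K19Rik) regulates autophagy. The members thus hold both germ-cell proteins and proteins of general function.

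Most members encode a protein. Of the 176 matched members 154 (87.5%, exact 95% interval 81.7 to 92.0) were annotated as protein-coding, against 98.4% of all listed genes. The share was 89.3% in the other testis series and 95.8% in the other Rik series. The other 22 comprised 10 lincRNAs, 7 antisense transcripts and 5 pseudogenes of various classes. The table lists 37 lincRNAs in all. Members made up 10 of these, the other testis series another 10 and the other Rik series 5. By position, the first 5 non-coding members were 1700101I19Rik and 1700034H15Rik on chromosome 1, 1700060C20Rik on chromosome 2, and 1700017G19Rik and 1700018B24Rik on chromosome 3. Of these, 1700034H15Rik lies antisense to Slc30a1, a zinc transporter, and 1700101I19Rik to Amer3. Rab10os (1700012B15Rik), the non-coding member with a new name, lies antisense to Rab10, a small GTPase of vesicle traffic. In all, 43 of 176 members (24.4%) overlapped a protein-coding gene on the other strand, and in 32 of these the partner was listed too. Neither count was made over all listed genes, so the 32 are not read as a trait of members. The share with such an overlap was similar in the other testis series (23.8%) and the other Rik series (26.9%). The labels call the libraries directional, but the sources used here do not say whether strand was used in counting.

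Proteins of the series are short by annotation. The median of the longest coding length was 227 codons in the 154 protein-coding members (interquartile range 166 to 326). It was 461 codons over the 11067 listed protein-coding genes, 380 in the other testis series and 303 in the other Rik series. The exact 95% interval of the median was 209 to 244 for members and 325 to 439 for the other testis series. The 2 sets of testis clones, which were close in CpG content and motifs, thus lay apart in length. Of the number series with at least 10 listed genes, 4 had a lower median than the 1700 series, down to 188 codons in the 1810 series. The shortest member was 1700084M14Rik (78 codons), on the X chromosome. The longest was Fam186a (1700030F18Rik, 3035 codons), and 5 members exceeded 1000 codons, among them Kansl1 (1099) and Spata31d1a (1336). Renamed members had a median of 246 codons and those still with a 1700 name one of 210. Members had a median of 4 exons in the longest transcript, against 8 over all listed protein-coding genes. That transcript had a single exon in 14 members (9.09%), against 5.52% of all listed protein-coding genes. Genes counted so may have shorter spliced transcripts. The other testis series and the other Rik series both had a median of 5 exons, and 15.2% and 6.15% of longest transcripts had a single exon. Few exons are thus not particular to the 1700 series.

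**Figure D3:**
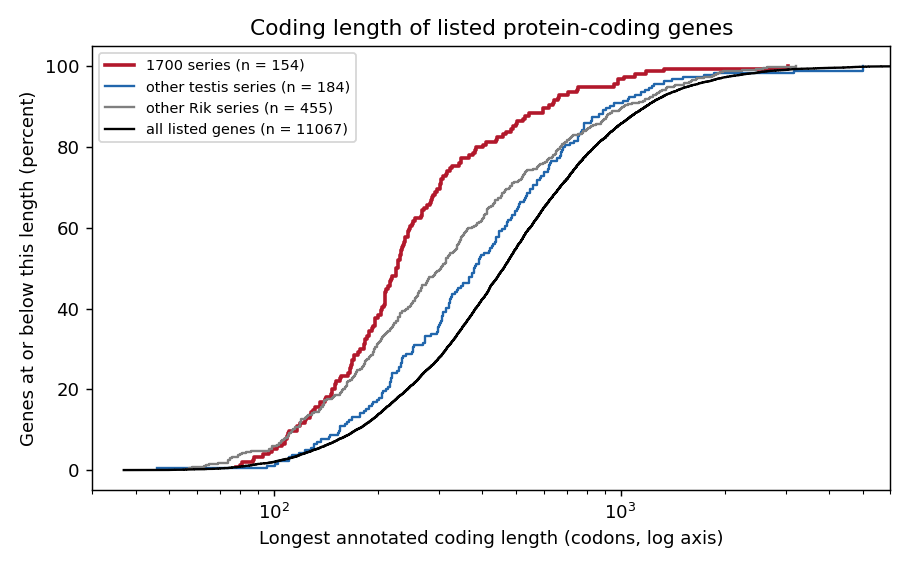
Cumulative percent of listed protein-coding genes against the longest annotated coding length in codons (log axis), for 3 sets of Rik genes and all listed genes. The curve of the 1700 series (median 227) lies left of those of the other Rik series (303), the other testis series (380) and all listed genes (461) over the middle of the range.

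The table holds most protein-coding genes that still carry a 1700 name. GENCODE M21 has 103 such genes, and 84 of them (81.6%, exact 95% interval 72.7 to 88.5) were listed by identifier. The share was 65.2% (92 of 141) for the other testis series, 35.6% (120 of 337) for the other Rik series and 50.2% over all protein-coding genes. Renamed genes fall out of these Rik shares. They were 72.2% of matched listed genes in the other Rik series, 47.6% in the other testis series and 40.9% in the 1700 series. Of genes with 1700 names that encode no protein 22 of 417 (5.28%) were listed, and of genes of all types 20.4%. Many of these identifiers are newer than those of the table, taken here as numbers above the 99th percentile of the listed identifiers. Among older identifiers the share was 16.9% (21 of 124) for genes that encode no protein and 88.3% (83 of 94) for protein-coding genes. With the same limit these shares were 8.66% and 69.3% in the other testis series, and 3.59% and 42.3% in the other Rik series. For lincRNAs alone the share was 11 of 217 (5.07%), against 37 of 5854 (0.632%) over all lincRNAs. It was 2.92% in the other testis series and 0.823% in the other Rik series. These lincRNA shares were not limited to older identifiers, so identifier age may differ between the sets. Of the 84, 1700092M07Rik, stood in the table under an accession-like symbol, and the lincRNA 1700110I01Rik stood there as Gm2938, so neither is a member. Of the 19 protein-coding genes not listed by identifier, 8 have such newer identifiers. Of these 8, 1700001F09Rik is in the table under an older identifier and is a member. The 19 include 4 genes on the X chromosome, 1 of them with a newer identifier, and 1 on Y, which also has a newer one. On the X chromosome 3 of 7 such genes were listed (exact 95% interval 9.90 to 81.6), and on the autosomes 81 of 95 (85.3%). In the other testis series 10 of 20 were listed on X (exact interval 27.2 to 72.8), against 67.8% on the autosomes. In the other Rik series the counts on X were 2 of 14 (1.78 to 42.8), against 36.5%. Both of these intervals hold the autosome share. No share by chromosome was counted over all protein-coding genes, so a low share on X is not read as a trait of these genes. A gene without a row may still be expressed.

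**Figure D4:**
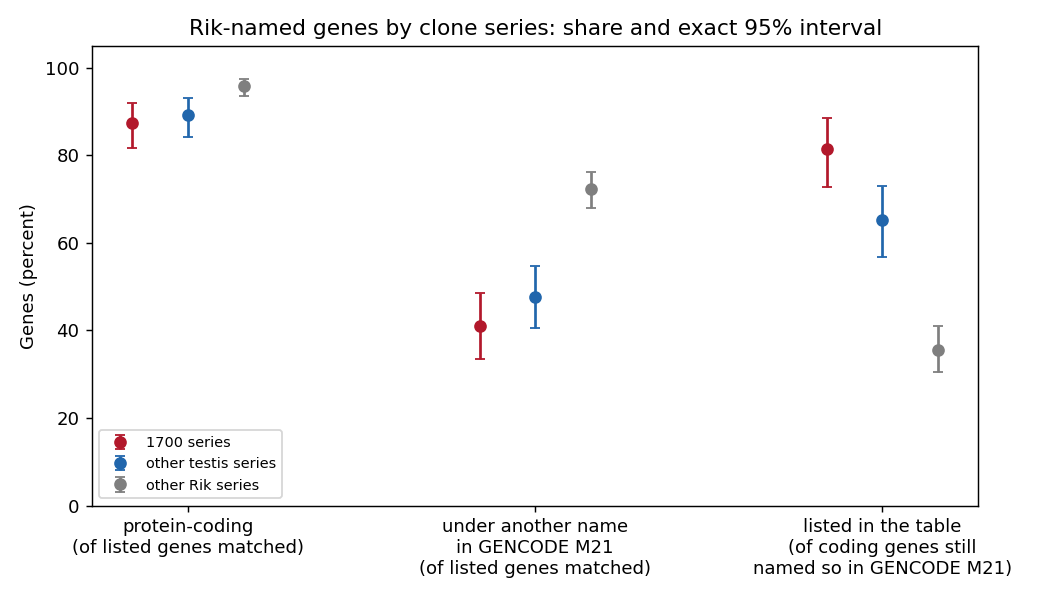
Percent of genes, with exact 95% binomial intervals, in 3 sets of Rik genes: the share annotated as protein-coding, the share under another name in GENCODE M21, and the share of coding genes still so named that the table lists. The 1700 series has the lowest share renamed (40.9%) and the highest share listed (81.6%) of the 3 sets.

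Members were spread over all autosomes and the X chromosome, with none on Y. Chromosome 2 held the most (15) and chromosome 16 the fewest (2). Relative to all listed genes, members made up 1.57%, with a range over chromosomes 1 to 19 from 0.543% (chromosome 16) to 2.26% (chromosome 6). The 6 X-linked members were 2.14% of listed X-linked genes. They were Hypm (1700054O13Rik, H2ap in RefSeq), Tcp11x2 (1700008I05Rik), 1700013H16Rik, 1700080O16Rik, 1700084M14Rik and the lincRNA 1700010D01Rik. Within 100000 bases of each other lay 5 pairs of members. The closest were 1700003F12Rik and Actl10 (1700007I08Rik), an actin-like protein, 1773 bases apart on chromosome 2. Another pair, 1700017D01Rik and 1700025F22Rik, 8788 bases apart on chromosome 19, are Ms4a20 and Ms4a19 in RefSeq.

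A start within 1000 bases of that of a protein-coding gene on the other strand, with both genes leading away from each other, was found for 15 members (8.52%, exact 95% interval 4.85 to 13.7). The share was 11.4% over all listed genes, 14.6% in the other testis series and 17.5% in the other Rik series. The partner of each of the 15 was listed, as were 90.2% of such partners over all listed genes. Several partners are known for general functions, such as Cct3, a subunit of the CCT chaperonin, 117 bases from Tsacc. Gtf2e2, a subunit of the general transcription factor TFIIE, started 14 bases from the lincRNA 1700104B16Rik. Others act in germ cells or cilia. Calr3, a testis chaperone of the endoplasmic reticulum, started 10 bases from 1700030K09Rik, Tssk3, a testis kinase, 168 bases from Fam229a, and Cluap1, a protein of intraflagellar transport, 112 bases from 1700037C18Rik. The 13 such members with a window had a median CpG ratio of 0.741, against 0.364 in the other 129. No member started within 1000 bases of any of 27 genes of the piRNA pathway and of meiosis, such as Piwil1, Tdrd1, Mybl1 and Sycp3. With so short a list and no share over all listed genes, this count does not set members apart.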

How the data were processed

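Polyadenylated RNA of 6 libraries of late spermatocytes was sequenced. The submitters' processing notes name TopHat, Bowtie and mm9, without versions. The sources used here do not say how a value per gene was made. The deposited table has 11421 rows and 8 columns and no header line. It holds gene identifiers and symbols as deposited by the authors, and 6 columns of values without names. These 6 columns were not used. The tests between genotypes that had been planned, with edgeR or limma, could not be made. Of the deposited columns only the text was used, with no score or other measure.

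Members and lists were chosen with earlier results of these data known. Identifiers were matched without version to GENCODE M21 (GRCm38, not the authors' build), whose coordinates are given. Coding length is the longest annotated coding sequence of a gene in codons, without the stop codon. RefSeq genes (GRCm38.p6) were matched by symbol for 168 members and by a synonym of 1 gene for 9. A promoter window was found for 142 of 182 members and 9047 of 11421 listed genes, and where a gene had several the one nearest to the GENCODE start was taken. Genes named are renamed members with one of 26 fixed symbol starts (up to 3 per start by position), the shortest and longest, the X-linked and the first 5 non-coding. Others were named, and the printed promoters, the limits of CpG ratio and codon number and the count of overlapping motifs chosen, after the values were seen. Intervals are exact (Clopper-Pearson, 95%) for shares and from order statistics for medians; they describe counting and not the spread between libraries. The motif search and intervals were tested on simulated data. Depth is unknown. Python 3.11.15, NumPy 2.4.6, pandas 2.3.3, SciPy 1.17.1 and Matplotlib 3.10.9 were used.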

Additional observations from a re-analysis of the deposited data

How the results depend on the processing

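No paired analysis was possible because no column of values could be tied to a library. The alternatives of the genotype comparison (replicate block, normalization, filter, left-out replicates) were not run for the same reason. Of 29 alternatives for the other results, 26 gave values within the exact 95% interval of the reported one, 3 did not. Against annotated genes of all types, in place of protein-coding genes, the share of 1700 names listed was 20.4%. The annotation of non-coding genes is in large part newer than the table: among older identifiers 16.9% of non-coding 1700 genes were listed, against 5.28% of all. In the last 150 bases of the window, up to 50 after the start, in place of 300, the MYB core stood in 30.3% of member windows (14.2% over all listed genes) and the TATA box in 0.704% (2.82% over all listed genes, 6.94% over all RefSeq windows). The cause of the larger fall of the TATA box in members was not tested. Using all windows of a gene, or only windows that start within 100 bases of the annotated start, was chosen after the data were seen. For 40 of 182 members no window was used, so the promoter values do not describe all members.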
